A study of Mus musculus with 16 samples.

Results

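N6-methyladenosine (m6A) peaks of MC38 cells that lie under YTHDF2 RNA immunoprecipitation (RIP) peaks are described here. MC38 is a mouse colon adenocarcinoma line. An m6A peak of the WT cells was taken when its exonic blocks shared at least 1 base, on the same strand, with a block of an m6A peak of the KO-labelled cells and with a block of a YTHDF2 RIP peak. This held for 7891 of 19236 WT m6A peaks (41.0%), in 4149 of the 9427 genes with a WT m6A peak (44%). The sites were thus chosen by the position of peaks in all 3 lists, so counts of overlap are a description with no test.

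The study profiled WT cells (titles tagged gNC) and Ythdf2-KO cells (tagged gY2) with m6A immunoprecipitation (3 libraries each) and inputs (3 each), and YTHDF2 RIP with 2 RIP and 2 input libraries, 16 in all. No other allele or treatment is given, and the RIP libraries and their inputs are labelled WT. The labels do not say whether the KO cells are 1 clone, nor whether replicates were separate cultures. Any p-value here covers only library-to-library spread, which may be technical. Values per gene come from the 6 input libraries, and each of the 3 peak lists stands for a group with no replicate values. Ythdf2 whole-gene reads averaged 61.3 ± 6.63 CPM (counts scaled to TMM-adjusted library totals, SD, n = 3) in WT and 63.1 ± 4.27 CPM in the KO-labelled libraries. These reads do not check the knockout, since reads from an edited gene can still be counted, and the group is therefore called KO-labelled.

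Library totals lay between 45441281 and 50959555 counts, and 3 counts corresponded to 0.0589 to 0.066 CPM. On the leading principal component of the inputs (51.4% of variance), KO-labelled replicate 1 took a place between WT and the other 2 KO-labelled libraries. Marker sums cover only the markers that passed the low-count filter. Of 13 colon epithelium markers, Krt20 and Vil1 passed it. These 2 summed to 0.854 to 1.02 CPM in WT and 0.602 to 0.65 CPM in the KO-labelled libraries. Epcam, Krt18 and Cldn7 were at 0 throughout. Of 10 fibroblast markers 8 passed, and summed to 2120 to 2680 CPM in WT and 1510 to 2640 CPM in the KO-labelled libraries. Of these 8, 1 was called lower. Of 15 leukocyte markers 4 passed (Cd3d, Cd68, Lyz2 and S100a8), and summed to 69.8 to 89.9 CPM and 59.7 to 160 CPM. Of these 4, 1 was called higher and 1 lower, and Cd8a, Adgre1 and Ncr1 were at 0. Of 7 endothelial markers 3 passed, and summed to 1.65 to 2.00 CPM and 1.90 to 2.70 CPM, with Emcn at 0. The epithelial markers of the labelled tissue were therefore at 0, below the filter or, for the 2 tested, near 0 in these cells.

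m6A is written on nascent mRNA by the METTL3 and METTL14 methyltransferase complex, mostly within a short consensus in long exons and round the stop codon. YTHDF2 is a cytoplasmic reader whose YTH domain holds the methylated adenosine and whose disordered part recruits the CCR4-NOT deadenylase, which shortens the poly(A) tail and speeds decay. A site that is methylated and lies where YTHDF2 is pulled down is where this reader is thought to act.

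The consensus is a run of 5 bases: A, G or T, then A or G, then the methylated A, then C, then A, C or T. It is known as DRACH and comprises 18 pentamers. Printed first are coding stretches in which the WT m6A peak, the KO-labelled m6A peak and the RIP peak all overlap. Pdgfra, Col5a1 and Mki67 are shown because their stretches were rich in the consensus, and Hspa5 because its level rose in the KO-labelled inputs. All are 5′ to 3′ from GENCODE M21 transcripts (GRCm38, the assembly of mm10), lie within 1 coding exon, and have consensus matches in capitals.
Pdgfra (chr5:75192431-75192672, plus strand): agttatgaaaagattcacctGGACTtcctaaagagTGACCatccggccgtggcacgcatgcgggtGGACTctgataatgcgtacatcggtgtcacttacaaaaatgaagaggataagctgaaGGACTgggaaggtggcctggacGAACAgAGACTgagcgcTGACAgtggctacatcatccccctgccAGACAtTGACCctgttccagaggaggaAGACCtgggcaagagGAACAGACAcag
Col5a1 (chr2:27951325-27951474, plus strand): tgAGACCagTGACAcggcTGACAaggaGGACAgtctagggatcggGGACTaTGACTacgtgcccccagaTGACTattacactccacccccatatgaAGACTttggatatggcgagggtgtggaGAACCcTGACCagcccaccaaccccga
Mki67 (chr7:135697627-135697866, minus strand): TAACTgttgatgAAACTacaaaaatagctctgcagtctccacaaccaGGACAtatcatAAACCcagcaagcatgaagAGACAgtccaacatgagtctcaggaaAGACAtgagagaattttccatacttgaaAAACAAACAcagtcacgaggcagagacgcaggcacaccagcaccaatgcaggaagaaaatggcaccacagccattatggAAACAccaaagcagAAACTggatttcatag
Hspa5 (chr2:34775598-34775778, plus strand): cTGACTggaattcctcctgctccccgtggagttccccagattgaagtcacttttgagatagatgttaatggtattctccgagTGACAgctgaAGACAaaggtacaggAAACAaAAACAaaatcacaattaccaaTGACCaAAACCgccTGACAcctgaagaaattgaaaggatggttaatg
The 242 bases of Pdgfra, a receptor tyrosine kinase for platelet-derived growth factor, held 12 matches (49.6 per kilobase). The 150 bases of Col5a1, a fibrillar collagen chain, held 10 matches, and the 240 bases of Mki67, the Ki-67 proliferation antigen, also held 10. The 181 bases of Hspa5, the endoplasmic reticulum chaperone BiP, held 8. Several matches stand close together in each of these stretches, so the adenosine that was methylated cannot be read from the peak.

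From coding ends and 3′ UTRs, windows of 29 bases are shown, with GGACT in capitals, because this form of the consensus stood furthest above its reversed letters in the 3′ UTR sites among the 3 motifs counted.
Axin1 (chr17:26195043-26195071, plus strand): ggtggaaaaggtGGACTgagcactgggca
Phlda3 (chr1:135766792-135766820, plus strand): ggcagagtcttgGGACTgggacccttgtg
Myc (chr15:61989827-61989855, plus strand): cacctctgaaaaGGACTtattgaggaaac
Hspa5 (chr2:34776140-34776168, plus strand): attgtaaatactGGACTcaggaactttcg
Phlda1 (chr10:111508148-111508176, plus strand): atcaagtagtttGGACTtcacccgacgga
Klf4 (chr4:55527790-55527818, minus strand): ttgaacatgcccGGACTtacaaaatgcca
Csf1 (chr3:107742800-107742828, minus strand): gaacctggcaagGGACTcactagcctgga
Cavin2 (chr1:51301981-51302009, plus strand): ctaatagcaccaGGACTgctgagatagaa
Distances to the stop codon are counted from the last coding base before it. In Axin1, a scaffold of the beta-catenin destruction complex, the central A lay at -1. In Phlda3, a p53-induced inhibitor of AKT, it lay at -17, and in the transcription factor Myc at -64. In Hspa5 it lay 44 bases into the 3′ UTR, in Phlda1 132, in the pluripotency factor Klf4 324, in the macrophage growth factor Csf1 348 and in the caveolar protein Cavin2 576.

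Most of these sites were covered by YTHDF2 RIP signal over much of their length. RIP peaks covered 4314 of the 7891 sites (54.7%) wholly and 6353 (80.5%) over at least 50% of their bases. KO-labelled m6A peaks covered 3276 (41.5%) wholly and 7359 (93.3%) over at least 50%. The median site had 211 bases under all 3 lists, 121 sites (1.53%) had no single base under all 3, and 6814 (86.4%) met 1 RIP row only. Peak edges followed a step of 30 bases: 75.9% of WT m6A widths were a multiple of it or 1 base more. Just inside the rule, 143 sites shared exactly 1 base with a RIP peak and had a median width of 181 bases. Just outside it, 128 shared m6A peaks had a RIP block closer than 31 bases, with a median width of 241, and 0 had one closer than 11.

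RIP peaks were broad and also covered much sequence outside m6A peaks. On 4948 transcripts with a shared m6A peak and a RIP peak, RIP peaks covered 64.4% of the bases under both m6A lists and 40.2% of the other bases. In 3724 pairs of 1 site and 1 RIP row, the RIP centre lay a median of 0 bases from the m6A centre, with quartiles of -105 and 120 bases (negative is towards the 5′ end). It lay within 100 bases in 44.9% of pairs. The RIP centre was nearer the 3′ end in 49.5% and nearer the 5′ end in 46.9%. The RIP rows had a median width of 418 bases and the sites 330.

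Sites under RIP peaks were wide. Their median width was 331 exonic bases (quartiles 211 and 539), and the widest, in Mki67, reached 5061. Shared m6A peaks outside RIP had medians of 241 bases in genes with a RIP peak elsewhere (2906 peaks) and 270 in genes without (4655 peaks). Width bears on the rule directly, because a wider peak has more bases with which to meet a RIP peak. Of shared WT peaks up to 180 bases wide, 39.0% were under a RIP peak, and of those over 900 bases, 76.3% of 706 were. The KO-labelled peak was typically as wide as the WT peak (median ratio 1). The median deposited score, read as a p-value, was 5e-31 for these sites, 1.3e-22 for those outside RIP in genes with a RIP peak and 1.6e-33 in genes without.

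The sites were concentrated on long exons. Of 7196 sites placed on a coding transcript, 63.5% (95% Clopper-Pearson interval 62.4 to 64.6) had their centre in coding sequence, 34.0% (32.9 to 35.1) in the 3′ UTR and 2.53% (2.18 to 2.92) in the 5′ UTR. All intervals on shares cover counting error only. Centres in internal coding exons longer than 400 bases made up 21.8% (20.8 to 22.8), where an even spread over the same transcripts gives 12.03%. The share was 13.5% (12.1 to 14.9) for shared m6A peaks outside RIP in genes with a RIP peak, where the even spread gives 7.54%. In genes without a RIP peak it was 5.77% (5.05 to 6.55), against 3.51% for the even spread. The intervals of the 3 groups of peaks did not overlap, and the even spread over their own transcripts fell in the same order. Counting every exon over 400 bases, 81.1% of sites lay in one, against 67.4% for an even spread. Shared peaks outside RIP had 64.3%, against 58.6%, in genes with a RIP peak and 52.3%, against 48.8%, in genes without. WT m6A peaks under a RIP peak but with no KO-labelled peak had 82.5%, against 71.05%, so a high share was not particular to the sites.

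Within 200 bases of the stop codon lay 23.3% of sites (22.4 to 24.3), against 10.2% for an even spread. Shared peaks outside RIP in genes with a RIP peak had 24.9% (23.2 to 26.6) there, against 11.4%, and their interval overlapped that of the sites. Shared peaks in genes without a RIP peak had 33.5% (32.03 to 35.05), against 17.9%. The transcripts of this last group were shorter, with a median of 2302 bases and a median 3′ UTR of 666, than those of the genes with a site under RIP, with 3884 and 1346.5. The longest exon had a median of 1927.5 bases in the latter and 935 in the former. Of the sites, 97.1% lay in protein-coding genes, 54 in lincRNA genes and 81 in genes annotated as antisense. Peaks on opposite strands could mirror each other: 268 sites (3.40%) were covered over at least 50% of their bases by a WT m6A row on the other strand.

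**Figure D1:**
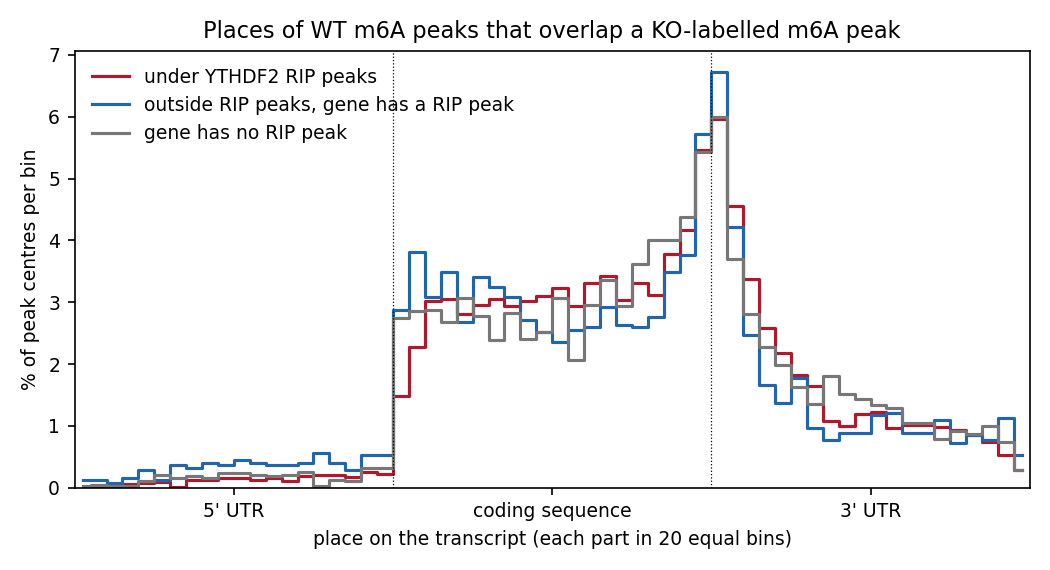
Places of m6A peak centres on coding transcripts. The horizontal axis runs along the 5′ UTR, the coding sequence and the 3′ UTR, each in 20 equal bins, and the vertical axis gives the percentage of centres per bin. The red line is the 7196 placed sites under RIP peaks, the blue line 2466 shared peaks outside RIP in genes with a RIP peak, and the grey line 3815 in genes without one. All 3 lines peak at the stop codon.

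Consensus density was highest at the centre of the sites. Over the transcripts of 3972 genes, DRACH matches stood at 25.5 per kilobase in the sites and 18.6 per kilobase in parts under no m6A or RIP peak, a ratio of 1.37 (95% interval 1.36 to 1.39 from the counts). The same letters reversed gave a ratio of 1.29 (1.28 to 1.30), so most of that ratio was shared with a motif of the same base composition. GGACT had a ratio of 1.54 (1.49 to 1.60), and reversed 1.09. In 3′ UTR parts of the sites, GGACT stood at 1.83 per kilobase, 2.21 times (2.08 to 2.35) the level of unpeaked 3′ UTR, and its reverse at 1.01 times. In coding parts the GGACT ratio was 1.22 (1.16 to 1.28), with 1.10 reversed. The sense strand alone was searched.

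RIP peaks off m6A on these transcripts lacked this excess. Their DRACH ratio was 1.09 (1.08 to 1.10) and their GGACT ratio 0.888 (0.858 to 0.919), with reversed ratios of 1.15 and 1.04. Shared m6A peaks outside RIP in genes with a RIP peak had a GGACT ratio of 1.66 (1.57 to 1.77), and in genes without a RIP peak 1.497 (1.42 to 1.57). All ratios here divide by the unpeaked parts of transcripts with a site, also for peaks in other genes. The interval of the sites under RIP, 1.49 to 1.60, overlapped both. In 3′ UTR parts alone the sites were lower: the ratio was 2.21 (2.08 to 2.35) in the sites, 2.64 (2.38 to 2.91) in shared peaks outside RIP in genes with a RIP peak and 2.63 (2.43 to 2.84) in genes without, and the interval of the sites overlapped neither. Of the central windows of 151 bases, 23.7% (22.7 to 24.7) of 7161 sites held GGACT, 24.2% (22.5 to 26.0) of shared peaks outside RIP in genes with a RIP peak, 22.1% (20.8 to 23.5) in genes without, and 13.9% (13.5 to 14.2) of 39777 unpeaked windows. Any DRACH match was present in 98.2% of site windows and 92.5% of unpeaked windows, so its presence alone hardly separated them.

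Among the 18 pentamers, counted where all 3 lists overlap, AGACT (1.67 times the unpeaked density), GGACA (1.66), GAACA (1.66), AGACA (1.62) and AAACA (1.62) had the highest ratios. GAACT (1.56), AAACC (1.55) and GGACT (1.55) came next. Pentamers that open with T were lowest, from 0.92 for TAACT and 1.01 for TGACC to 1.25 for TGACA.

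**Figure D2:**
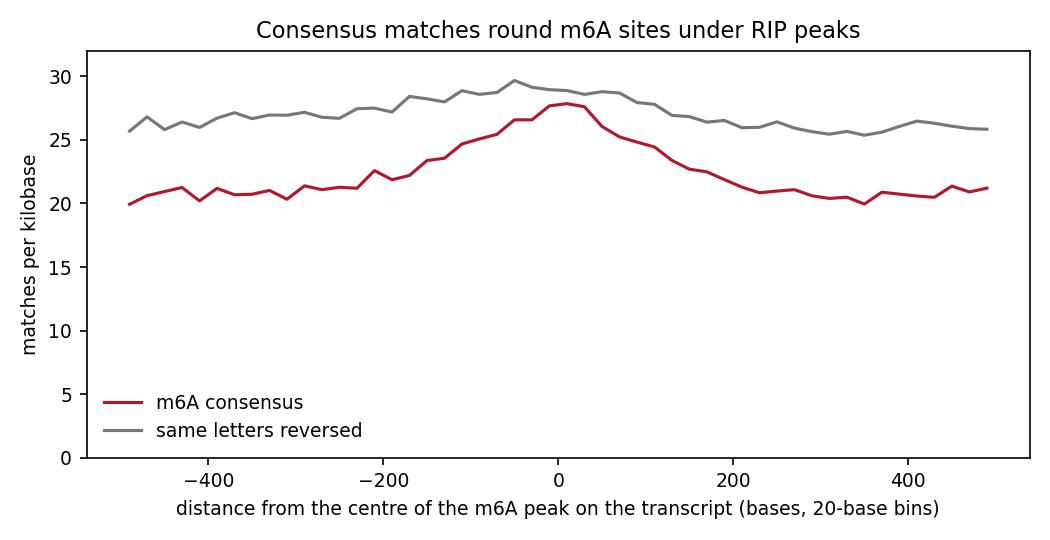
Matches per kilobase (vertical axis) in bins of 20 bases by distance in bases from the centre of the m6A site along the transcript (horizontal axis, negative towards the 5′ end). The red line is the DRACH consensus and the grey line the same letters reversed. The consensus rises from 19.9 per kilobase at the left edge to 27.8 at the centre, and the reversed letters from 25.7 to 28.9.

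Genes held between 1 and 17 such sites. Of the 4149 genes, 2155 (51.9%) had 1, 1064 had 2, 529 had 3, 224 had 4, 83 had 5 and 94 had 6 or more. High numbers were found on Macf1 (17 sites) and Dst (16), which encode giant crosslinkers of actin, microtubules and intermediate filaments. Zfhx4, a zinc-finger homeodomain protein, had 15, and Cep350, a centrosomal protein, had 14. None of these 4 genes passed the edgeR test for a difference in input level, with log2 fold changes from -0.01 (Dst, adjusted p = 0.920) to 0.82 (Zfhx4, adjusted p = 0.060).

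Most of the longest stretches under all 3 lists were centred in long coding exons. In Golgb1, the Golgi tether giantin, a site of 4404 exonic bases at chr16:36914231-36919542 (plus strand, centre in exon 12 of 21, an exon of 5129 bases) had 4136 bases under all 3. In Ankrd11, a chromatin regulator, a site of 4108 bases at chr8:122892026-122896133 (minus strand, exon 9 of 13, 6518 bases) was covered throughout. Zfp62, a zinc finger protein, had 3421 bases under all 3 within a last exon of 3753. Plec, the cytolinker plectin, had 3121, Rif1, which controls replication timing and DNA end repair, 2963, and Ahnak, a giant scaffold whose last exon has 17498 bases and holds 10 of its 12 sites, 2522. Sgo2a, a protector of centromeric cohesion, had 2307, Kctd18 2277, Asxl1, a Polycomb-associated factor, 2273 and Resf1, a retroelement silencing factor, 2190. The Kctd18 and Sgo2a sites lay over each other on opposite strands, and reads of the 2 genes there cannot be told apart without strand. None of the 10 genes passed the edgeR test in the inputs. Ahnak averaged 1548 ± 101 CPM in WT inputs and 1153 ± 240 in the KO-labelled ones (log2 fold change -0.42, adjusted p = 0.104).

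Of 23 tested m6A writers, erasers and readers, 10 carried a site under a RIP peak. They were 50% of the 20 with m6A in both lists, close to the 50.6% over all genes with m6A in both lists, and 0 of the 10 passed the edgeR test, with a median log2 fold change of 0.09 for those 10. Each of the 3 cytoplasmic readers carried 1 long site, centred in its penultimate exon. Ythdf1 had 1465 bases under all 3 lists (chr2:180905572-180912113, minus strand, an exon of 1521 bases), Ythdf2 1734 (chr4:132186615-132205532, minus strand, 1584) and Ythdf3 1828 (chr3:16203924-16214341, plus strand, 1599). The Ythdf2 site was present in the KO-labelled list as well, and both scores were far below the median (1e-187 in WT and 1e-199 in KO-labelled). None of the 3 readers passed the test: Ythdf1 averaged 92.7 ± 9.08 CPM in WT and 103 ± 2.03 in KO-labelled inputs (adjusted p = 0.272), and Ythdf3 65.4 ± 4.03 and 67.9 ± 5.58 (adjusted p = 0.709).

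Of 44 tested mRNA decay factors, 24 carried a site, and 0 of the 24 passed the test. The 3 Tnrc6 scaffolds, which link Argonaute to the deadenylases, carried 4 sites each. Tnrc6a had 2252 bases under all 3 lists in sum, Tnrc6b 2551 and Tnrc6c 2642. Tnrc6a averaged 90.8 ± 7.43 CPM in WT and 91.1 ± 4.21 in KO-labelled inputs. Dcp2, the decapping enzyme, had 2 sites with 1229 bases.

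The share of genes with a site ranged from none to most across the 19 gene lists. Over all 18969 genes tested in the inputs, 4083 (21.5%) had one, and over those with m6A in both lists, 50.6%. Chromatin modifiers were at the top, with 50 of 58 genes (86.2%) and 205 sites, and all 58 had m6A in both lists. Arid1a, a subunit of the BAF remodelling complex, had 4 sites with 2731 bases under all 3, Kat6b, a histone acetyltransferase, 4 with 2705, and Tet2, which oxidises methylated cytosine, 6 with 1925. At the bottom, none of 50 cytosolic ribosomal protein genes had one. Of these, 24 carried m6A in both lists and 1 had a RIP peak.

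Signalling and transcription factor lists lay nearer the top. Immediate early and AP-1 transcription factors had 21 of 33 genes (63.6%), receptor kinases, TGF-beta and growth factor signalling 24 of 39 (61.5%), feedback inhibitors of MAPK and cytokine signalling 17 of 28 (60.7%) and Hippo pathway genes 15 of 25. Among feedback inhibitors with m6A in both lists, 17 of 18 (94.4%) had a site. Lists in between were the type I interferon response with 21 of 44, Wnt and Notch signalling with 13 of 28, endoplasmic reticulum stress with 13 of 29, the p53 pathway with 10 of 23, extracellular matrix with 17 of 43, NF-kB with 11 of 29, class I antigen presentation with 6 of 19 and cell cycle with 14 of 48. Lower still, glycolysis had 3 of 18 (Hk2, Slc2a1 and Pdk1), chemokines 1 of 15 (Cx3cl1) and nuclear-encoded respiratory chain subunits 1 of 31 (Cycs).

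**Figure D3:**
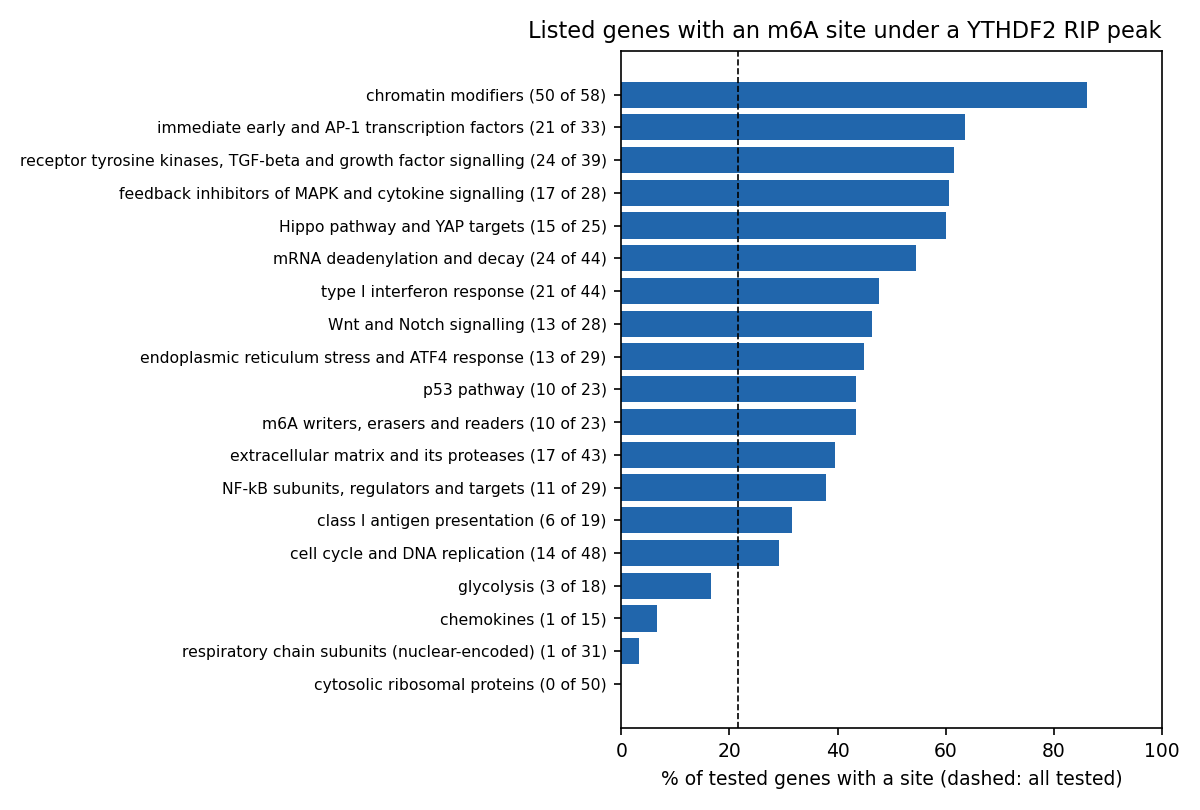
Horizontal bars give, for 19 gene lists, the percentage of genes tested in the inputs that have at least 1 m6A site under a YTHDF2 RIP peak, with the counts in brackets. The dashed line is the 21.5% of all tested genes. Chromatin modifiers reach 86.2% and cytosolic ribosomal proteins are at 0.

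Transcript length and level moved with these shares. The median transcript of the chromatin modifiers had 7313 bases and that of the ribosomal protein genes 925.5. Their median WT levels per length were 11.4 and 1040 CPM per kilobase. Among genes with m6A in both lists, the share with a site was 26.0% for transcripts up to 1793 bases and 72.9% for those of 5098 bases and over, the shortest and the longest of 5 equal groups. In 5 equal groups by WT CPM per kilobase, it was 66.2% between 4.91 and 10.1 and 26.4% at 39.1 and over. The part of length and level in the order of the lists was not tested. Genes with symbols of the form Zfp and a number, looked at after the values were seen, had a site in 179 of 327 tested cases (54.7%), with a median transcript of 3251.5 bases.

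The last comparison asked how the levels of these genes differ between the inputs of WT and KO-labelled cells, which the rule did not use directly. Of 4083 tested genes with a site, 232 rose and 47 fell in the KO-labelled inputs (edgeR quasi-likelihood test, Benjamini-Hochberg adjusted p below 0.05), and 3804 did not pass. In bulk RNA a change in the share of cells that express a gene and one in RNA per cell cannot be told apart. The 232 are 5.68% of these genes, where 2.99% of all tested genes were called higher, and the 47 are 1.15%, where 1.54% of all were called lower. The rule needs a peak in both m6A lists and so needs reads in both groups. This bears on how many strong falls and how many strong rises it can hold. The median log2 fold change was 0.11, against -0.01 over all tested genes, and 64.7% of the genes were above 0.

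These counts rest on single libraries. Without KO-labelled replicate 1, 1424 genes with a site (34.8%) were called higher and 608 (14.9%) lower. Over all genes tested in that fit, 19.3% were called higher and 16.1% lower. Without KO-labelled replicate 2, KO-labelled replicate 3 or WT replicate 3, 1 was higher and 0 lower in each case. Over all genes these fits called 1 to 3 higher and 0 to 3 lower. Without WT replicate 2 there were 0 and 0, also over all genes, with 1156 genes with a site at an unadjusted p under 0.05. DESeq2 with every library gave 874 (21.1%) and 215 (5.18%). Over all 55401 genes of the count table, those without a test included, it called 2141 (3.86%) and 1133 (2.05%). The main fit tested only 18969 of these genes, and the others were too low. These shares are therefore not on the same footing as those of genes with a site, and no enrichment can be read from them. Without WT replicate 1 there were 22 (0.538%) and 6 (0.147%), against 0.271% and 0.205% of all genes tested. The median was less dependent: it stayed between 0.09 and 0.13 over these 6 fits. Relative to the WT mean, the median gene with a site was at 0.07, 0.12 and 0.13 on the log2 scale in KO-labelled replicates 1, 2 and 3, and between -0.02 and 0.01 in the WT libraries. By this median all 3 KO-labelled libraries were above all 3 WT libraries.

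The other gene classes are given for comparison. Of 1008 genes with m6A in both lists and a RIP peak but no overlap of the kind required, 53 (5.26%) were higher and 15 (1.49%) lower, with a median of 0.07. Of 2985 with m6A and no RIP peak, 115 (3.85%) were higher and 46 (1.54%) lower, with a median of 0.04. Genes classed as m6A in 1 list only had 40 of 1531 higher (2.61%), 45 lower (2.94%) and a median of -0.09. Genes with a RIP peak and no m6A had 20 of 822 higher (2.43%), 22 lower (2.68%) and a median of -0.03. Genes with neither had 1.26% of 8540 higher, 1.38% lower and a median of -0.12, at a median level of 1.00 CPM per kilobase in WT, against 10.5 for genes with a site and 22.4 for those with m6A and no RIP peak. Differences between these classes were not tested. The values share the same 6 libraries, and length moved with them: over 5 groups of about equal numbers of genes, from short to long transcripts, the median was -0.01, 0.08, 0.10, 0.14 and 0.13 for genes with a site and -0.01, 0.07, 0.05, 0.07 and 0.08 for m6A genes without RIP. The share called higher was 3.81%, 5.93%, 5.19%, 8.15% and 4.50% for genes with a site, and 3.11%, 5.03%, 1.99%, 4.62% and 7.01% for m6A genes without RIP. In the longest transcripts (5098 bases and over) the order of the shares was thus the opposite of that in the other 4 groups. In 5 groups of WT CPM per kilobase, low to high, the median was 0.176, 0.126, 0.0893, 0.0905 and 0.022 for genes with a site. It was 0.0114, 0.0401, 0.0788, 0.045 and 0.0261 for m6A genes without RIP. The shares called higher were 6.36%, 6.18%, 4.85%, 5.87% and 4.45% for genes with a site. For m6A genes without RIP they were 3.58%, 4.3%, 3.95%, 3.93% and 3.74%.

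Genes with more sites were higher by the median but not by the share called. The median log2 fold change was 0.09 for genes with 1 site, 0.11 with 2, 0.12 with 3 and 0.16 with 4 or more. The share called higher was 5.05%, 6.81%, 6.65% and 4.75% in the same order, and the share called lower 1.43%, 1.04%, 0.951% and 0.25%.

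**Figure D4:**
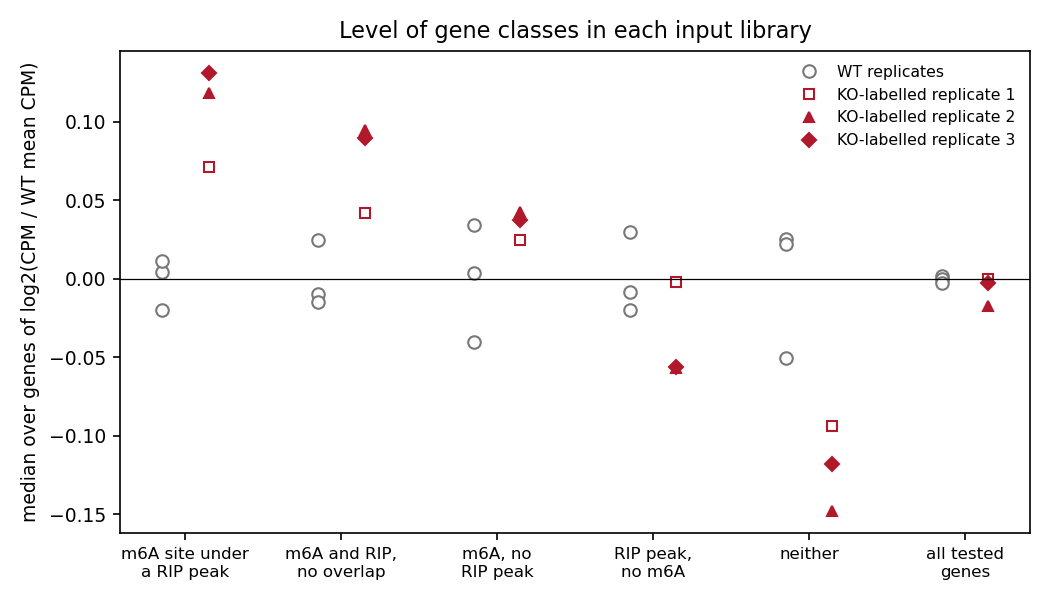
Median over genes of log2(CPM divided by the WT mean CPM) in each of the 6 input libraries (vertical axis) for 5 gene classes and all tested genes (horizontal axis). Genes with m6A in 1 list only are not drawn. Open circles are the WT libraries, the open square is KO-labelled replicate 1, and filled symbols are replicates 2 and 3. Genes with an m6A site under a RIP peak lie at 0.07 to 0.13 in the KO-labelled libraries and at -0.02 to 0.01 in WT.

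Values are given for the 10 largest rises among genes with a site. Rises and falls were taken from called genes whose groups did not overlap, so that lack of overlap is no finding. Calcrl, the calcitonin receptor-like receptor, stood at 8.95, 7.47 and 6.85 CPM in WT and 20.8, 44.7 and 42.9 CPM in KO-labelled inputs (log2 fold change 2.22, SE 0.29, edgeR adjusted p = 0.023). All KO-labelled values lay above all WT values, with replicate 1 the lowest of them. Gdf15, a stress-induced cytokine of the TGF-beta family, stood at 33.0, 18.3 and 18.8 CPM in WT and 50.97, 104 and 104 CPM in KO-labelled inputs (1.89, SE 0.34, adjusted p = 0.035). Its site of 180 bases lay in coding sequence at chr8:70629751-70629930 (minus strand), with 150 bases under all 3 lists.

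Phlda1, a pleckstrin homology domain protein, stood at 16.9, 14.5 and 15.5 CPM in WT and 38.5, 60.4 and 63.6 CPM in KO-labelled inputs (log2 fold change 1.79, SE 0.19, adjusted p = 0.016). It carried 3 sites with 687 bases under all 3 lists, more than any of the other 9 genes with the largest rises. Cx3cl1, the membrane-bound chemokine fractalkine, stood at 8.04, 6.69 and 6.38 CPM in WT and 12.6, 22.8 and 23.2 CPM in KO-labelled inputs (1.47, SE 0.25, adjusted p = 0.034). Its site at chr8:94779608-94779938 (plus strand, coding, exon 3 of 3) met a RIP peak over 121 of 331 bases, with 91 under all 3 lists. The RIP score of 0.00012 was weak. The groups did not overlap for either gene, which the choice required.

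Hnrnpa3, an RNA-binding protein, stood at 68.4, 60.4 and 61.4 CPM in WT and 174, 185 and 163 CPM in KO-labelled inputs (log2 fold change 1.46, SE 0.08, adjusted p = 0.0055), with no gap between replicate 1 and the others. Gdf11, a TGF-beta family ligand, stood at 10.9, 10.4 and 9.64 CPM and at 25.9, 29.9 and 26.2 CPM (1.41, SE 0.11, adjusted p = 0.0085). Sipa1l2 (1.77), Prrg4 (1.70), Dynap (1.46) and Zfpm1 (1.39), a GATA cofactor, completed the 10. The Sipa1l2 site shared 1 base with the RIP peak, and in Prrg4 no base lay under all 3 lists. Hnrnpa3 has related gene copies and an overlapping gene on its strand, so its counts are uncertain in that respect.

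The 10 largest falls are given in the same way. Sp110, an interferon-induced nuclear body protein, stood at 25.6, 18.3 and 17.6 CPM in WT and 9.44, 5.89 and 5.39 CPM in KO-labelled inputs (log2 fold change -1.57, SE 0.25, edgeR adjusted p = 0.032). Cavin2, a caveolar coat protein, stood at 22.4, 23.3 and 22.0 CPM and at 12.7, 5.87 and 6.20 CPM (-1.45, SE 0.29, adjusted p = 0.042). Pde4b, a cAMP phosphodiesterase, stood at 13.0, 15.3 and 15.5 CPM and at 5.69, 5.89 and 5.30 CPM (-1.37, SE 0.13, adjusted p = 0.013). Thbs1, the matrix glycoprotein thrombospondin 1, stood at 123, 137 and 147 CPM and at 67.2, 46.9 and 49.4 CPM (-1.32, SE 0.15, adjusted p = 0.018). In all 4 every KO-labelled value lay below every WT value, which the choice required.

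Peak scores are given for a fall and a rise, as 2 examples. In Thbs1, which had 2 sites, the 3′ UTR site had a score of 5e-99 in WT and 6.3e-37 in KO-labelled cells. In Gdf15 the coding site had 1.3e-46 and 1e-104. The mean input level went from 136 to 54.5 CPM for Thbs1 and from 23.4 to 86.3 CPM for Gdf15. A score can depend on the reads at a gene, so methylation and level cannot be told apart from these scores. The remaining falls were Tmem140 (-1.51), Ugt1a7c (-1.24), Gm21992 (-1.14), Gm13404 (-1.07), Trim12a (-0.998) and Gm867 (-0.997). Ugt1a7c shares exons with a cluster of 16 overlapping genes on its strand, and Gm21992 overlaps 3, so reads could be split among them. Over the 40 called genes named here and in the lists, 30 passed in 1 of the 6 fits that left out a library, 9 in 2 and Hnrnpa3 in 5. Calcrl, for example, had adjusted p-values from 1.05e-14 to 0.164 over all alternatives, and Thbs1 from 4.18e-14 to 0.141.

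**Figure D5:**
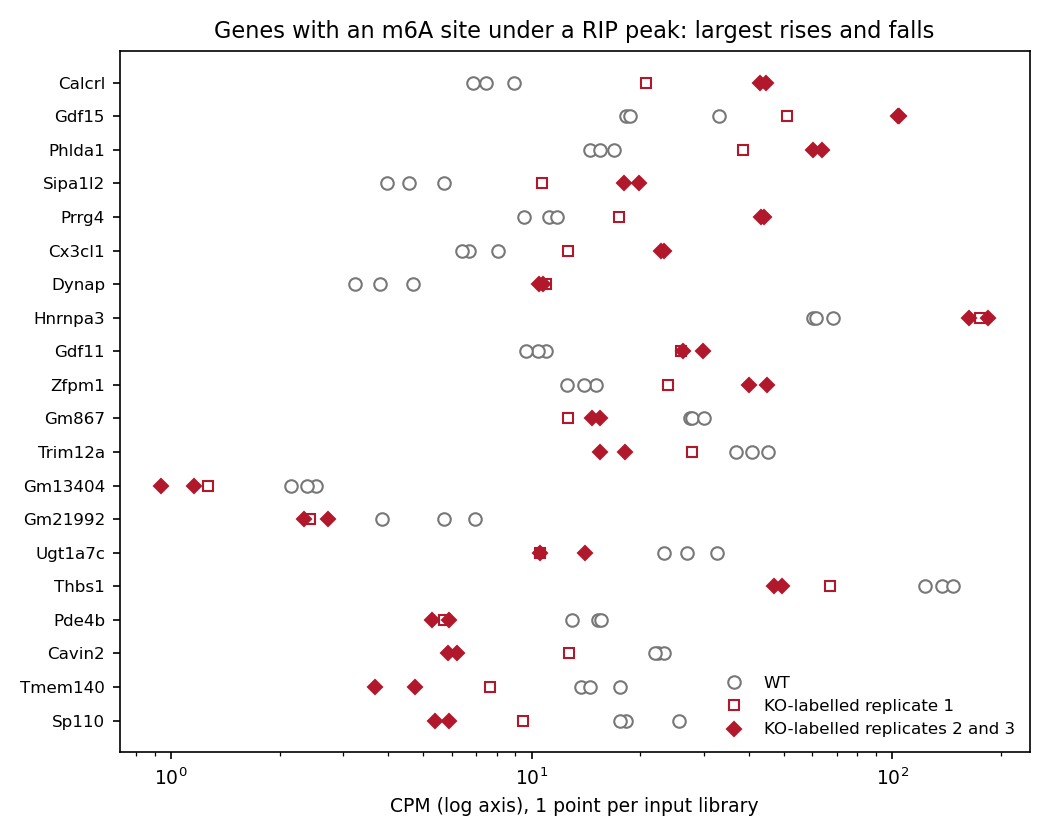
CPM in each input library (horizontal axis, log scale) for the 10 largest rises and the 10 largest falls among genes with an m6A site under a RIP peak. Open circles are WT libraries, open squares KO-labelled replicate 1 and diamonds KO-labelled replicates 2 and 3. The groups do not overlap for any of the 20 genes, which the choice of genes required, and replicate 1 lies between WT and both other KO-labelled libraries for 14 of them.

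By gene list, called genes with a site were few in each, and are given beside the whole list. Over all tested genes 2.99% were called higher and 1.54% lower. In the endoplasmic reticulum stress list 2 of 13 genes with a site rose and 0 fell, and over the list 7 of 29 rose and 0 fell. Hspa5, whose site of 841 bases ran from the last coding exon into the 3′ UTR, stood at 1028, 983 and 978 CPM in WT and 1792, 2022 and 2045 CPM in KO-labelled inputs (log2 fold change 0.97, SE 0.07, edgeR adjusted p = 0.0082). Pdia4, a disulfide isomerase of the same compartment, rose by 0.76 (adjusted p = 0.029). Xbp1, the spliced transcription factor of this response, had 1 site and a log2 fold change of 0.05 (adjusted p = 0.663).

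In the p53 list 5 of 23 tested genes rose and 0 fell. With a site, 3 of 10 rose: Gdf15, Phlda3 (log2 fold change 0.60, adjusted p = 0.023) and the death receptor Tnfrsf10b (0.50, adjusted p = 0.040). Mdm2, the p53 ubiquitin ligase, had 0.45 (adjusted p = 0.060), and Bbc3, the BH3-only protein PUMA, -0.25 (adjusted p = 0.146). In the cell cycle list 3 of 14 rose, and over the list 8 of 48, with 0 lower. Rrm2, a ribonucleotide reductase subunit, rose by 0.94 (adjusted p = 0.036), the repressor E2f8 by 0.69 (adjusted p = 0.029) and Mki67 by 0.63 (adjusted p = 0.020). Mki67 stood at 434, 400 and 396 CPM in WT and 597, 636 and 665 CPM in KO-labelled inputs, with no overlap. In Rrm2 no base of the site lay under all 3 lists.

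Type I interferon genes with a site went both ways: 2 of 21 rose and 2 fell. Ifit2, an interferon-induced RNA-binding protein with 2099 bases under all 3 lists, stood at 37.2, 36.0 and 36.3 CPM in WT and 50.7, 56.2 and 55.7 CPM in KO-labelled inputs (log2 fold change 0.57, edgeR adjusted p = 0.023). The receptor chain Ifnar1 rose by 0.44 (adjusted p = 0.0497). Ifi44 (-0.87, adjusted p = 0.036) and the ubiquitin ligase Dtx3l (-0.68, adjusted p = 0.036) fell, both with shorter stretches under all 3 lists (270 and 91 bases). The median over the 21 was -0.43, and over all 44 tested genes of the list -0.42, with 2 higher and 8 lower. Dtx3l overlaps a gene on the other strand, and reads of that gene cannot be told apart without strand. Other called genes named here also overlap a gene on the other strand. They are Phlda1, Mki67, E2f8, Bcl9, Thbs1, Sp110, Cavin2, Tmem140, Trim12a, Gm867, Gm21992 and Ugt1a7c. In the class I antigen presentation list 0 of 6 genes with a site passed, while over all 19 tested genes 1 was higher and 6 lower. B2m, the invariant light chain, averaged 805 ± 19.8 CPM in WT and 792 ± 121 in KO-labelled inputs.

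Among immediate early factors 1 of 21 rose and 1 fell. Id1, an inhibitor of DNA-binding helix-loop-helix factors, stood at 53.2, 58.6 and 63.1 CPM in WT and 114, 113 and 121 CPM in KO-labelled inputs (log2 fold change 0.99, SE 0.08, edgeR adjusted p = 0.010). Klf4 stood at 78.7, 80.4 and 77.1 CPM and at 55.8, 42.6 and 41.8 CPM (-0.75, adjusted p = 0.031). Both had groups that did not overlap. Myc, with 3 sites and 988 bases under all 3 lists, had 0.41 (adjusted p = 0.086). Among feedback inhibitors 2 of 17 rose, Socs5 by 0.58 (adjusted p = 0.029) and Spred1, an inhibitor of Ras signalling, by 0.42 (adjusted p = 0.042), and 0 fell. Over that list 5 of 28 rose and 0 fell, and over the immediate early list 2 of 33 rose and 1 fell.

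Each of the remaining lists held at most 2 called genes with a site. The prostaglandin synthase Ptgs2 rose by 1.31 (adjusted p = 0.043), 1 of 11 in the NF-kB list. Its values were 136, 104 and 108 CPM in WT and 171, 343 and 348 CPM in KO-labelled inputs. Csf1, on the same list, had 1.07 (adjusted p = 0.055). The remodeller Chd7 rose by 1.13 (adjusted p = 0.035), 1 of 50 chromatin modifiers. The receptor Epha2 rose by 0.89 (adjusted p = 0.046), 1 of 24, although its site shared 1 base with the RIP peak. Bcl9, a beta-catenin cofactor, rose by 0.54 (adjusted p = 0.045), 1 of 13. In the matrix list the protease Adamts1 rose by 0.81 (adjusted p = 0.035) and Thbs1 fell, 2 of 17, and over that list 9 of 43 rose and 1 fell. Over the whole lists, 2 of 29 NF-kB, 1 of 58 chromatin, 4 of 39 receptor and growth factor and 1 of 28 Wnt and Notch genes rose, and 0 fell. Of 15 tested chemokines 1 rose, Cx3cl1, and 1 fell. Of 44 mRNA decay factors 1 rose and 0 fell, and of 23 m6A writers, erasers and readers 0 passed. None of 15 Hippo, 3 glycolysis and 1 respiratory chain genes with a site passed, nor did any other tested gene of those lists. Slc2a1, the glucose transporter GLUT1, had 106, 115 and 112 CPM in WT and 116, 245 and 253 CPM in KO-labelled inputs (0.88, adjusted p = 0.086). Each of the 23 called genes on the lists passed the threshold without KO-labelled replicate 1 and lost it without WT replicate 2, WT replicate 3, KO-labelled replicate 2 or KO-labelled replicate 3. Ifnar1 also lost it with RLE factors.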

How the data were processed

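The deposited data used here were raw read counts per gene from the 6 inputs, which the authors left unscaled, and a peak list each for WT m6A, KO-labelled m6A and YTHDF2 RIP. The submitters' processing notes name HISAT2, HOMER, ChIPseeker and mm10. For the counter, its strand setting, the peak caller and the pooling of libraries, the sources used here give nothing. Scores in the authors' lists lie near 0 and, judged by their range, were taken to be p-values. Signal of the immunoprecipitation libraries at each site was not analysed here.

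Peaks were joined by exonic blocks and strand, checked against bedtools 2.31.1 in Python 3.11.15. Centres were placed on the coding transcript of GENCODE M21 with the longest coding sequence, and motifs were counted on the same transcripts. Sequences come from GENCODE M21. Counts were tested with edgeR 4.0.16 in R 4.3.3 (TMM, filterByExpr, quasi-likelihood, Benjamini-Hochberg at 0.05) over 18969 of 55401 genes, tested on simulated data first. The standard error is the log2 fold change divided by the square root of F. CPM uses TMM-scaled totals. Alternatives were DESeq2 1.42.0, RLE factors, no filter, a replicate block, leaving out each library, stricter overlaps and scores, and another transcript choice.

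The sites and the lists were chosen with earlier results of these data known. Named genes were the 10 with most bases under all 3 lists, the 5 with most sites, the 10 largest rises and falls that passed, did not overlap between groups and averaged at least 1 CPM, up to 4 genes by stretch and 4 by fold from each of 19 lists, and Ythdf2 and Cx3cl1. One gene that this rule names is not reported here.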

Additional observations from a re-analysis of the deposited data

How the results depend on the processing

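The counts of genes with a site that differ between the inputs depended on the fit. DESeq2 called 874 higher and 215 lower, and leaving out 1 library at a time gave 0 to 1424 higher and 0 to 608 lower. The shares over all genes in these fits are given above. The fit with no low-count filter called 32 (0.775%) and 8 (0.194%), and over all genes 70 (0.2%) and 41 (0.117%). It took every gene with any count, so its shares over all genes include many low genes that the main fit left out. No enrichment can be read from them. Deviations of same-numbered WT and KO-labelled libraries correlated by 0.049, 0.115 and 0.05. Those of differently numbered libraries correlated by -0.089 to 0.024. Whether the numbers mark pairs was not tested. With the number as a replicate block 24 (0.588%) were higher and 7 (0.171%) lower, against 0.237% and 0.137% over all genes. Restricting the sites to those covered over at least 50% left 193 of 3088 tested genes higher (6.25%) and 28 lower (0.907%). Over all tested genes 2.99% were higher and 1.54% lower in the main fit. RLE factors gave 206 (5.05%) and 46 (1.13%), against 2.67% and 1.47% over all genes. The 3′ UTR share was 37.2% on the longest coding transcript and 32.6% for sites covered over at least 50% by both lists. The motif ratio was 1.41 for bases under all 3 lists, 1.54 for GGACT and 1.42 for GGAC. The cause of these changes was not tested. The number of sites ranged from 5940 to 7939 under the other overlap and score rules. Depth limits low genes to 0.0589 CPM and above, and the peak lists carry no replicate error.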
